A study of Ascaris suum with 10 samples.

Results

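Polyadenylated RNA of adult intestine was set against that of the male and the female carcass of the pig roundworm Ascaris suum, 3 of the 10 libraries of the series. All worms came from a North American wild population, and no group carried a treatment. The intestine library holds intestine alone, and its label names no sex. The male carcass and the female carcass are each described as muscle, hypodermis, pharynx and neurons. The libraries used for description were muscle with hypodermis, larvae of day 7 (second stage), the germinal zones of testis and ovary, and a single embryo column that stands for 3 libraries of 24, 46 and 64 hr. Each tissue has 1 library, so no spread between animals is known, no test was possible and every difference below compares these libraries only. The sources used here do not give the number of worms pooled in a library. In such bulk tissue, fewer cells of a type and less RNA per cell cannot be told apart.

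The intestine of a nematode is a tube of epithelial cells with a brush border of microvilli, and it digests and absorbs food. The body wall outside it is made of obliquely striated muscle and the hypodermis that secretes the cuticle, with the nerve cords running along it, and the pharynx pumps food into the gut. Body-wall muscle in nematodes is known for very abundant transcripts of the contractile filaments, and the intestine for secreted and lysosomal enzymes and transporters. The table gives identifiers without gene names, so no listed gene could be given a role, and the labelled tissues could not be checked against their defining markers.

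Values are RPKM, reads scaled to the length of the gene model and to the mapped reads of the library, as deposited for 15446 genes. A gene was intestine-high when its intestine value was at least 4-fold above the higher of both carcasses, and carcass-high when its intestine value was at least 4-fold below the lower of them, both as log2((RPKM + 1)/(RPKM + 1)) with a threshold of 2. That scale understates the change of low genes. By this rule 500 genes were intestine-high (3.24% of the table) and 1603 were carcass-high (10.4%). These counts follow from the rule and are descriptions. The closest intestine-high gene stood at a log2 ratio of 2.000 and the closest gene outside at 1.997, with 117 genes within 0.25 inside the threshold and 139 within 0.25 outside it. On the carcass side the closest gene outside stood at -1.998, with 224 genes within 0.25 inside the threshold and 298 outside.

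Both carcasses share their listed tissues, so their own difference shows how far libraries of like tissue lay apart, sex included. Male carcass stood at least 4-fold above female carcass at 554 genes (3.59%) and at least 4-fold below it at 370 genes (2.40%). The rule for intestine is stricter, because both carcasses must be passed. Muscle under the same rule gave far fewer genes, 62 above the higher carcass (0.401%) and 306 below the lower carcass (1.98%). Set against a single carcass, intestine was at least 4-fold above male carcass at 723 genes, and above female carcass at 852, and at least 4-fold below them at 2162 and 2561 genes.

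**Figure D1:**
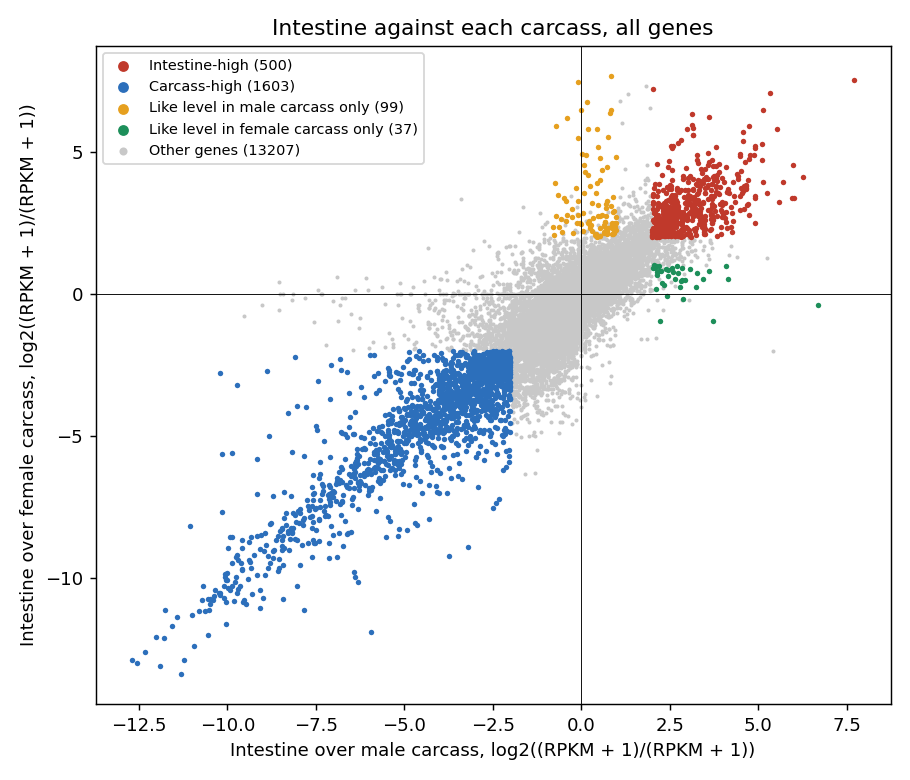
Log2 ratio of intestine over male carcass (x axis) and of intestine over female carcass (y axis), both with 1 RPKM added to each value, with 1 point per gene for all 15446 genes. The 500 intestine-high genes form the upper right block and the 1603 carcass-high genes reach down to -12.70 against the lower carcass, while 99 and 37 genes match the intestine in male or in female carcass only.

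The rule used the intestine and carcass values, so the parts of the summed RPKM held by each group are descriptions. The 500 intestine-high genes held 46.9% of the summed RPKM of intestine, against 3.17% in the male and 3.32% in the female carcass. The 10 highest of them in intestine held 33.6% of that sum. The 1603 carcass-high genes held 0.516% of the sum in intestine, against 49.1% in male carcass and 55.7% in female carcass. Their 10 highest members held 14.3% of the sum in male and 18.6% in female carcass. The sums themselves were 696947 RPKM in intestine, 791938 in the male and 821149 in the female carcass, and read depth is unknown. The highest intestine gene alone took 16.6% of the intestine sum, against 3.44% and 3.75% for the highest gene of male and female carcass. RPKM values are shares of a library, and over all genes the median log2 ratio was -0.38 for intestine over male carcass and -0.31 for intestine over female carcass. Scaling the columns by the median of ratios moved these medians to -0.18 and -0.07 and gave 743 intestine-high and 1415 carcass-high genes. The share of intestine-high genes among both groups was then 34.4%, against 23.8% as deposited. Scaling to an equal sum without the 10 highest genes of each column gave 815 and 1378 genes and a share of 37.2%.

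The groups are described next by the level of the gene, which is itself a value the rule used. Among 72 genes with 1000 RPKM or more in intestine, 29 (40.3%) were intestine-high, and of the 757 genes between 100 and 1000 RPKM, 165 (21.8%) were. Between 10 and 100 RPKM the share was 8.56% (264 of 3085), and between 5 and 10 RPKM it was 1.84%. The carcass-high genes followed the same order, with 64 of 95 genes (67.4%) at 1000 RPKM or more in the lower carcass, 36.8% between 100 and 1000 RPKM, 21.2% between 10 and 100 RPKM and 16.8% between 5 and 10 RPKM. Since the level is one side of the defining ratio, and the added 1 RPKM shrinks the ratios of low genes, nothing is read from this order.

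The median intestine-high gene had 62.2 RPKM in intestine (quartiles 25.1 and 200), against 7.40 in the male and 7.15 in the female carcass. Few were missing from the carcasses, with 10 (2%) listed at 0 in the male carcass, 22 (4.40%) in the female carcass and 5 (1%) in both. Over all genes these shares were 4.93%, 11.7% and 3.66%. The median log2 ratio over the higher carcass was 2.59, and 153 genes passed a ratio of 3. The rule used both carcass values, so their difference at these genes is a description. Genes under 1 RPKM in both carcasses always lie within 1 on this scale. They made up 13.2% of the group and 18.5% of all genes. The log2 difference of male minus female carcass had a median of 0.05 and lay within 1 for 389 of the 500 (77.8%), against 77.1% of all genes.

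The largest ratio belonged to ASG11147. It stood at 294.1 RPKM in intestine, against 0.4 in the male and 0.6 in the female carcass, a log2 ratio of 7.53 over the higher carcass. Testis had 43.9 RPKM of it, and it stayed at or under 1.7 RPKM in muscle, larvae, ovary or embryo. ASG04051 came next, with 133 RPKM in intestine, against 1.9 in the male and 1.4 in the female carcass (log2 ratio 5.53). Ovary was its second highest column at 21.5 RPKM, followed by embryo at 9.3. Both genes were therefore high in intestine and next highest in a gonad, with muscle and both carcasses at 2 RPKM or less.

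Of the 500 genes, 318 stood at least 4-fold above every other column of the table, 48 were matched or exceeded by larvae, a gonad or embryo, and 134 lay between. The 318 had a median of 93.3 RPKM in intestine, against 8.80 in the male and 8.90 in the female carcass, 3.45 in muscle, 1.2 in larvae, 0.600 in testis, 1.2 in ovary and 1.10 in embryo. ASG00501 led them with 281.9 RPKM in intestine, against 6 in the male and 1.1 in the female carcass and 2.6 in muscle, and it stayed under 1 RPKM in the other four columns. ASG15439 was second and was also the most abundant transcript of any column, at 115894.5 RPKM in intestine. It stood at 3287.3 RPKM in the male and 1298.2 in the female carcass and 1861.3 in muscle, then at 511.4 in ovary, 318.7 in embryo, 129.1 in testis and 35 in larvae. Larvae were thus its lowest column, below both gonads.

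Among the 48 genes matched elsewhere, larvae held the highest value for 26 (54.2%), embryo for 9 (18.8%), testis for 8 (16.7%) and ovary for 5 (10.4%). Over all genes these shares were 20.2%, 31.4%, 12.6% and 9.68%, in the same order. The 48 were picked by these columns, so their shares are partly built in. The largest excess over intestine was in testis. ASG08440 stood at 292.2 RPKM in intestine, against 70.2 in the male and 1 in the female carcass, and reached 10220.3 RPKM in testis, with 459.3 in ovary and 146 in larvae. ASG09387 stood at 30.5 RPKM in intestine, against 3.4 and 5.7 RPKM in male and female carcass, and at 314.8 RPKM in testis. The values of ASG08440 in intestine, male carcass, larvae and ovary are small next to its testis level. Its log2 ratio over the higher carcass was 2.04 and fell outside the group, at 1.90, with columns scaled to their upper quartile.

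**Figure D2:**
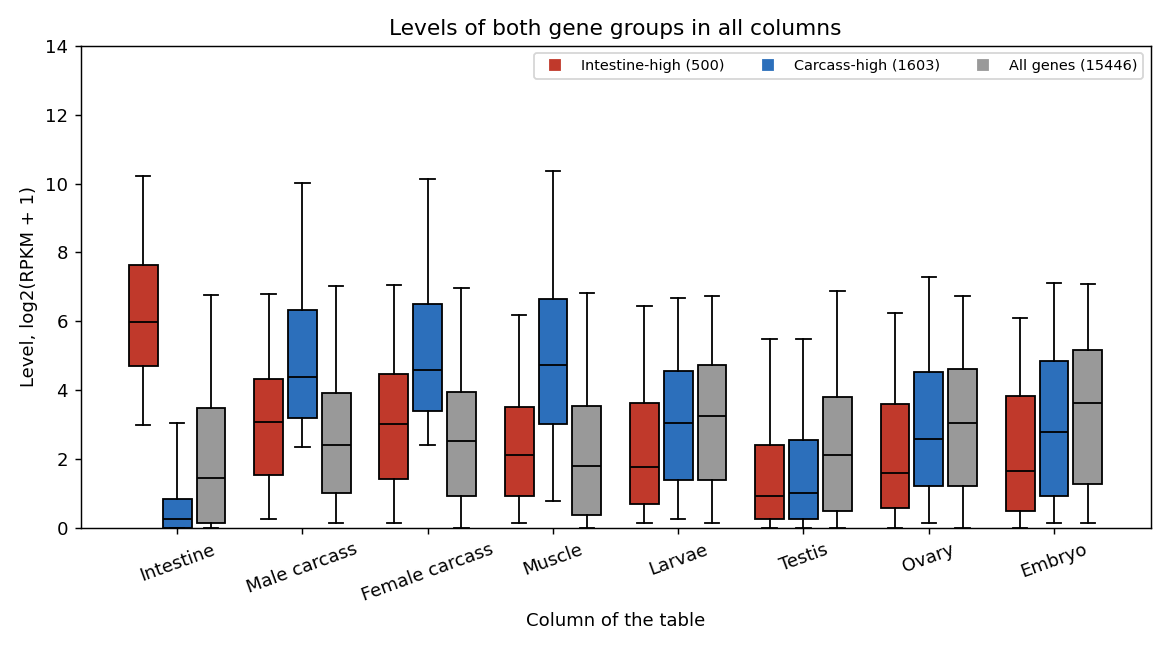
Levels as log2(RPKM + 1) (y axis) in each column (x axis) for the intestine-high genes, the carcass-high genes and all genes, with boxes from the lower to the upper quartile, a line at the median and whiskers from the 5th to the 95th percentile of genes. Carcass-high genes stay high in muscle (median 25.5 RPKM). The medians of intestine-high genes lie slightly above those of all genes in muscle (3.35 against 2.50 RPKM) and below them in larvae, gonads and embryo.

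Muscle, larvae, gonads and embryo were not used to choose the genes. In muscle, the intestine-high genes stood at a median of 3.35 RPKM, against 2.50 RPKM for all genes, and 42.8% reached 5 RPKM, against 37.9% of all genes. With a pseudocount of 0.1 the muscle share was 34.0%, below that of all genes, the only one of 11 settings to turn this direction. Muscle lay below both carcasses for 298 of them (59.6%), against 50.8% of all genes. In larvae their median was 2.40 RPKM, against 8.60 for all genes, and 36.6% reached 5 RPKM, against 58.9%. Testis was lower still, and ovary close to larvae. The median was 0.900 RPKM in testis, against 3.30 for all genes, and 22.6% reached 5 RPKM, against 42.7%. In ovary the median was 2.00 RPKM, against 7.30, and 36.8% reached 5 RPKM, against 56.5%. In the embryo column 39.0% reached 5 RPKM, against 61.2% of all genes. The intestine-high shares were under the all-gene shares in larvae, testis, ovary and embryo under all 11 settings of pseudocount, threshold, scaling and carcass used. How far a rule that asks for low carcass values sets these shares by itself was not tested. Among the 5489 genes with 5 RPKM or more in intestine, 69.9% reached that level in muscle and 82.3% in larvae. In ovary 81.1% did, in testis 63.3% and in embryo 82.9%. Set against these genes, the intestine-high shares were lower in each of these columns, muscle included.

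The most abundant intestine-high genes had low levels in larvae, gonads and embryo relative to their intestine level. For the 50 genes at 500 RPKM or more in intestine, the median level was 8.92% of the intestine level in the male and 11.1% in the female carcass, and 3.98% in muscle. It was 0.911% in ovary, 0.613% in embryo, 0.334% in testis and 0.259% in larvae. All 50 were at 5 RPKM or more in both carcasses and 47 in muscle, whereas 40 reached it in ovary, 29 in testis, 28 in embryo and 21 in larvae. At 1 RPKM or more the count was 43 in larvae and 36 in embryo, so the order of these columns depends on the measure. In RPKM the 50 were not low within the group. Over all 500 genes smaller parts reached 5 RPKM, 36.8% in ovary, 22.6% in testis, 39.0% in embryo and 36.6% in larvae. For the 264 genes between 10 and 100 RPKM the larval median was 7.17% of the intestine level, and for the 29 at 1000 RPKM or more it was 0.0909%. These medians were 6.25% and 0.173% in embryo, 3.86% and 0.566% in ovary, and 1.48% and 0.214% in testis. Muscle changed much less over the same range, with medians of 4.43% and 3.63%. The divisor is the intestine level, which the rule and the level classes used, so a fall with level is partly built in. Whether intestinal tissue carried over into the carcass and muscle dissections was not tested.

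Carcass-high genes had little RNA in intestine. The rule asks for an intestine value at least 4-fold below the lower carcass, so their intestine levels are descriptions. Their median was 0.200 RPKM in intestine, against 19.8 in the male and 23.1 in the female carcass. In intestine 545 of the 1603 (34.0%) were listed at 0, against 23.3% of all genes. There 107 (6.67%) reached 5 RPKM, against 35.5% of all genes. The median log2 ratio of intestine over the lower carcass was -3.30, and the most extreme was -12.70, farther from 0 than the largest intestine-high ratio of 7.53. Male minus female carcass had a median log2 difference of -0.14 and lay within 1 for 73.4% of these genes, against 77.1% of all genes. Male carcass was at least 4-fold above female carcass at 61 of them (3.81%), against 3.59% of all genes, and at least 4-fold below at 86 (5.36%), against 2.40%. The rule used both carcass values, so these differences are descriptions. No carcass-high gene was under 1 RPKM in both carcasses, against 18.5% of all genes, which cannot differ 2-fold on this scale.

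The extremes were among the most abundant transcripts of the body wall. ASG05180 stood at 3.1 RPKM in intestine, against 27279.6 in the male and 30804.8 in the female carcass, and at 15877.4 in muscle. ASG14588 stood at 0.6 RPKM in intestine, against 9672.7 in the male and 12822.7 in the female carcass, with 6755.2 RPKM in muscle. The log2 ratios of intestine over the lower carcass were -12.70 for ASG05180 and -12.56 for ASG14588. In both genes ovary carried more than testis, 72.4 against 1.1 RPKM for ASG05180 and 24.2 against 1 RPKM for ASG14588, and embryo stood at 0.3 RPKM or less.

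Most carcass-high genes were also higher in muscle than in intestine. In muscle 80.7% reached 5 RPKM, against 37.9% of all genes. Among the 6256 genes with 5 RPKM or more in both carcasses, 81.4% did, so this presence in muscle is not particular to carcass-high genes. The carcass-high share was 43.6% with a pseudocount of 0.1 and stayed above that of all genes in all 11 settings. In all, 1315 of the 1603 (82.0%) stood at least 4-fold above intestine in muscle, against 12.5% of all genes, where the low intestine value is part of the rule. Muscle exceeded both carcasses for 717 of them (44.7%), against 17.7% of all genes. The 1315 muscle-shared genes had a median of 0.200 RPKM in intestine, 23.9 in the male and 27.3 in the female carcass and 36.2 in muscle. They held 63.7% of the summed RPKM of muscle. ASG01479 and ASG05179 had the largest muscle excess over intestine. ASG01479 stood at 1.7 RPKM in intestine, 10308.4 in the male and 23185.8 in the female carcass and 17564.6 in muscle. ASG05179 stood at 0.6 RPKM in intestine, 3847 in the male and 12125.7 in the female carcass and 7864.4 in muscle. In both genes muscle lay between the carcasses, with male carcass the lower.

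A smaller set was carried by the carcasses and nearly missing from muscle. In 95 carcass-high genes the lower carcass stood at least 4-fold above muscle, 3 of which also passed the muscle-shared rule, and 196 genes met neither rule. The carcasses contain the pharynx and neurons that the muscle label does not list. The 95 genes had medians of 0.1 RPKM in intestine, 18.1 in the male and 26.8 in the female carcass and 0.200 in muscle. Of these, 36.8% reached 5 RPKM in larvae, 25.3% in ovary, 16.8% in testis and 35.8% in embryo, each below the share of all genes. ASG00629 stood at 0.3 RPKM in intestine, 1329.1 in the male and 1173.8 in the female carcass, was listed at 0 in muscle, and had 19.1 RPKM in embryo as its next highest value. ASG05537 stood at 0.3 RPKM in intestine, 982.6 in the male and 2376.7 in the female carcass, against 0.1 in muscle, with larvae and testis listed at 0. Which tissue of the carcass holds these transcripts was not tested. The 196 genes of neither rule had medians of 0.200 RPKM in intestine, 7.50 in the male and 9.30 in the female carcass, 2.50 in muscle, 8.95 in larvae, 13.2 in ovary and 21.9 in embryo. Embryo is also the column of the highest median over all genes, at 11.3 RPKM.

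**Figure D3:**
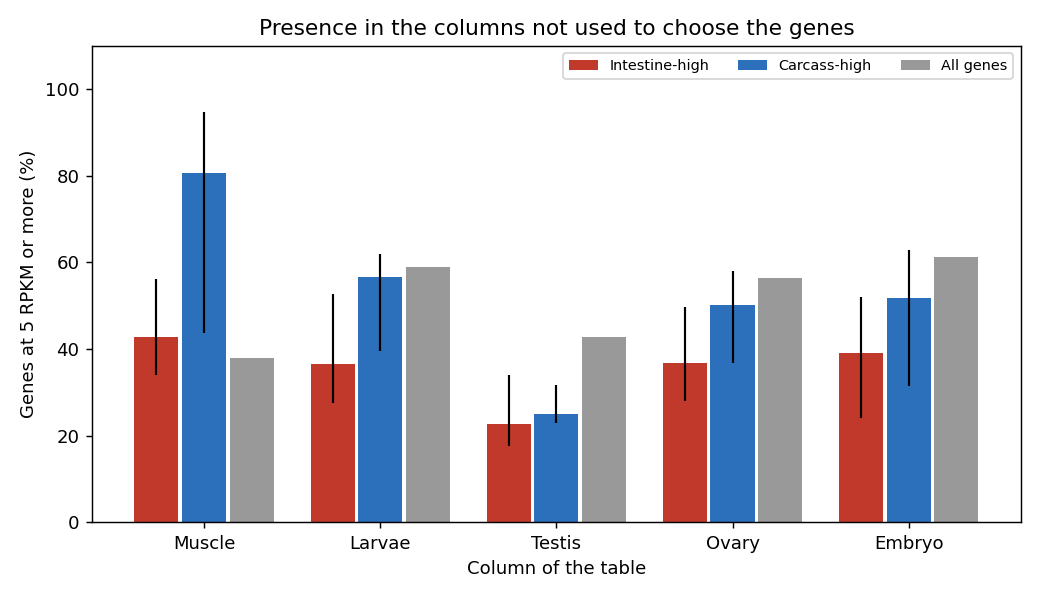
Share of genes at 5 RPKM or more (y axis, percent) in the columns that did not choose the genes (x axis), for intestine-high genes, carcass-high genes and all genes, with black lines from the lowest to the highest share over 11 settings of pseudocount, threshold, scaling and carcass. Carcass-high genes reach 80.7% in muscle, and testis has the lowest share for both groups, 22.6% and 25%.

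In their shares at 5 RPKM or more outside the body wall, carcass-high genes were nearer to all genes than intestine-high genes were. In larvae 56.6% reached 5 RPKM, against 58.9% of all genes, in ovary 50.1%, against 56.5%, and in embryo 51.8%, against 61.2%. Testis had the lowest share, 25%, against 42.7% of all genes. The larval, ovary and embryo shares were not firm, since they stood at or above those of all genes in 1, 2 and 2 of the 11 settings, whereas the testis share lay below in all 11. The 6256 genes with 5 RPKM or more in both carcasses had higher shares in each of these columns. They were 81.6% in larvae, 79.9% in ovary, 81.5% in embryo and 59.7% in testis. Ovary exceeded testis at least 4-fold for 533 carcass-high genes (33.3%), against 19.9% of all genes, and testis exceeded ovary that far for 56 (3.49%), against 10.4%. Ovary also held a large part of its RNA in these genes. The 1603 genes made up 26.9% of the ovary sum, 12.7% of the embryo sum, 10.3% of the larva sum and 2.59% of the testis sum. In ovary 10 of them held 16.9% of the sum, 19 stood at 1000 RPKM or more, and the highest reached 24713.7 RPKM, the top value of that column. The 2 carcass-high genes at that level in testis did not exceed 2304.8 RPKM.

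As in the intestine-high group, the abundant carcass-high genes were low outside the body wall relative to their own level. For the 108 carcass-high genes at 500 RPKM or more in the lower carcass, the median level relative to that carcass was 0.0497% in intestine and 160% in muscle. It was 1.04% in larvae, 0.993% in ovary, 0.345% in embryo and 0.116% in testis. For the 377 carcass-high genes between 5 and 10 RPKM the medians were far higher, 89.9% in larvae, 88.5% in embryo, 51.2% in ovary and 12.3% in testis. The rule used the intestine and carcass values, so the intestine figure is a description. The lower carcass level is the divisor of every percentage and also sets the level classes, so their fall with level is partly built in. Of the 108 genes, 92 reached 5 RPKM in ovary, 71 in larvae, 51 in embryo and 38 in testis. Over all 1603 genes the shares were 50.1%, 56.6%, 51.8% and 25%, in the same order.

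**Figure D4:**
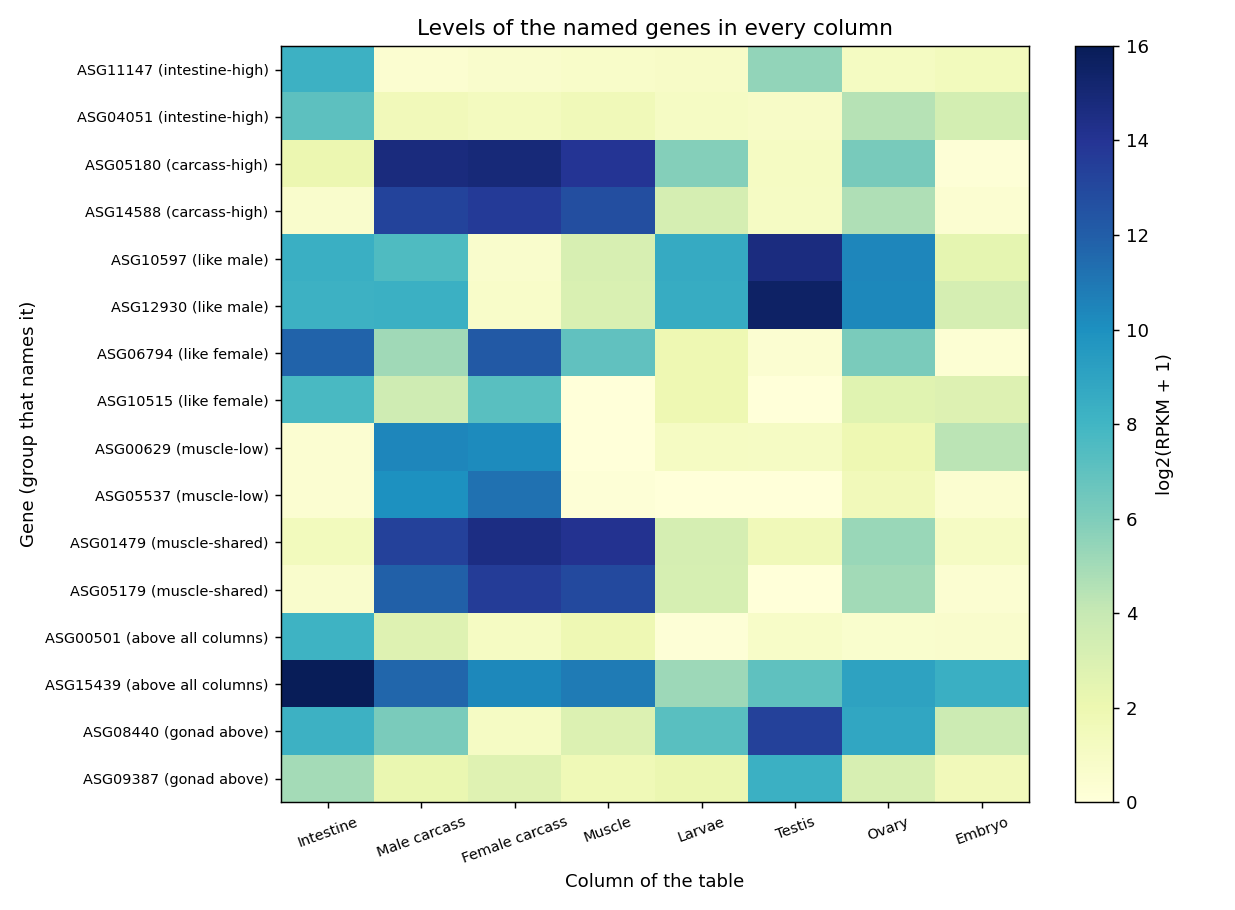
Level of each gene named by the rule (rows, with the group that names it) in every column of the table (x axis), with colour giving log2(RPKM + 1). Carcass-high and muscle-shared genes are dark in both carcasses and muscle, muscle-low genes in the carcasses only, and ASG10597, ASG12930 and ASG08440 are darkest in testis.

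Genes of the intestine that reach like levels in a single carcass were sought among the 3914 genes at 10 RPKM or more in intestine. A like level was within 2-fold of intestine on the log2(RPKM + 1) scale, with the other carcass at least 4-fold below intestine. By this rule 99 genes matched the intestine in male carcass only (0.641% of the table) and 37 in female carcass only (0.240%). For comparison, 1684 of the 3914 (43.0%) were within 2-fold of intestine in both carcasses, and 458 (11.7%) were intestine-high. Intestine over female carcass also passed the 4-fold threshold more often in all genes, 852 against 723 for male carcass.

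Part of the male-only group was far higher in testis than in any soma column. The 99 genes had a median of 40.5 RPKM in intestine, against 31.8 in the male and 3.80 in the female carcass. Testis was their highest column in 30 and exceeded intestine in the same number. In testis 26 (26.3%) stood at 1000 RPKM or more, against 89 genes (0.576%) of the table. Among the 3914 genes at 10 RPKM or more in intestine, from which the group was drawn, 44 (1.12%) did. Those 26 also made up 29.2% of the 89. Of the 37 female-only genes, 0 stood at that level in testis and 1 (2.70%) at 500 RPKM or more, with 796.9 RPKM. At 500 RPKM or more stood 1.12% of all genes and 1.92% of the 3914. ASG10597 and ASG12930 had the largest gap between intestine and female carcass. ASG10597 stood at 325.9 RPKM in intestine, against 182.2 in the male and 0.6 in the female carcass, and at 25529.3 RPKM in testis. ASG12930 stood at 296.5 RPKM in intestine, against 312.6 in the male and 0.7 in the female carcass, and at 47009 RPKM in testis, the highest value of that column. Muscle carried 7.8 and 7.2 RPKM of these genes, larvae 377.9 and 366.7 RPKM and ovary 1376.8 and 1316.7 RPKM.

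The rule bounded the intestine and carcass values of the 26 very abundant testis genes, which are given as a description. Their median was 0.838% of the testis level in intestine, against 0.717% in the male and 0.00646% in the female carcass. It was 0.0274% in muscle, 0.0498% in embryo, 1.24% in larvae and 4.09% in ovary. In intestine the 26 genes ran from 0.324% to 5.79% and in male carcass from 0.280% to 3.24%, while in female carcass the highest was 0.117%. Over all 89 genes at 1000 RPKM or more in testis the medians were 0.449% in intestine, 0.673% in the male and 0.0165% in the female carcass. Whether testis RNA entered the intestine and male carcass libraries was not tested. Without the genes higher in testis than in intestine, 69 male-only genes and 35 female-only genes were left.

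**Figure D5:**
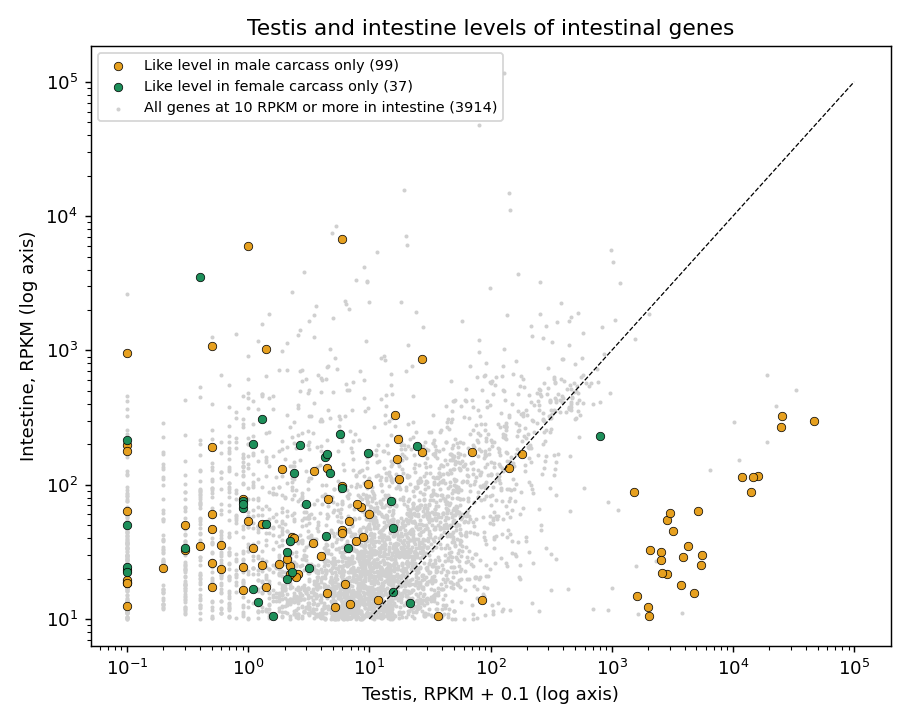
Testis RPKM plus 0.1 (x axis, log scale) against intestine RPKM (y axis, log scale) for genes at 10 RPKM or more in intestine, with the dashed line marking equal RPKM. The 26 male-only genes at 1000 RPKM or more in testis lie far to the right of the line, and the 2 female-only genes to its right reach at most 796.9 RPKM in testis.

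The 69 male-only genes whose testis level did not exceed that of intestine had medians of 41.0 RPKM in intestine, 32.3 in the male and 6.50 in the female carcass. In testis 27 of them were under 1 RPKM and 42 (60.9%) at 1 RPKM or more, near the 66.6% of all genes. In muscle their median was 5.90 RPKM and in larvae 7.50 RPKM. The 2 with the largest gap, picked after their values were seen, were ASG05529 and ASG11038. ASG05529 stood at 5945.6 RPKM in intestine, against 7869.3 in the male and 80.9 in the female carcass, with 14.3 RPKM in muscle and under 5 RPKM in larvae, gonads and embryo. ASG11038 stood at 198.2 RPKM in intestine, against 323.3 in the male and 2.3 in the female carcass, and did not exceed 1 RPKM outside the adult soma. Both were therefore high in intestine and male carcass, with testis at 0.9 RPKM or less. The intestine label gives no sex, so a difference of sex and a difference between dissections cannot be told apart here.

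The rule bounded the intestine and carcass values of the 37 female-only genes, so these levels are descriptions. Their medians were 66.6 RPKM in intestine, 9.90 in the male and 38.8 in the female carcass. Intestine was the highest column for 24 (64.9%), against 38 (38.4%) of the 99 male-only genes. Over all genes that share was 8.86%, and 22.3% among genes at 5 RPKM or more in intestine. Ovary exceeded intestine in 4 of them. In muscle their median was 3.70 RPKM, in larvae 3.40, in testis 2.20, in ovary 5.30 and in embryo 6.70. ASG06794 stood at 3547.9 RPKM in intestine, against 33.6 in the male and 4674.5 in the female carcass, with 122.5 RPKM in muscle and 70.5 in ovary. ASG10515 stood at 213.6 RPKM in intestine, against 11 in the male and 149.4 in the female carcass, with muscle and testis listed at 0. Which genes belong to the male-only and female-only groups depended on scaling, since 52 of the 99 and 12 of the 37 kept their place when the columns were scaled to an equal sum without the 10 highest genes of each column. Under that scaling ASG10597 left the male-only group, at a log2 ratio of 1.39 over male carcass, and ASG10515 left the female-only group, at 1.06 over female carcass. ASG10597 was also outside at an equal sum (1.02) and under the median of ratios (1.27).

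Members of both main groups often bore consecutive identifiers, a feature the rule did not use. Identifiers run without a gap from 1 to 15446. Of the 500 intestine-high genes, 173 (34.6%) had a neighbouring number in the same group, against 5.29% of the genes outside it that had a neighbour in it, and there were 17 runs of 3 or more numbers, the longest of 4. Of the 1603 carcass-high genes, 571 (35.6%) had such a neighbour, against 17.3% of the genes outside, with 58 runs of 3 or more and a longest run of 9. In the 95 muscle-low genes the share was 21.1%, against 1.09% of the genes outside, and in the 99 male-only genes 12.1%, against 1.19%. Whether consecutive numbers are neighbours in the genome, split models of a gene or copies that share reads was not tested, and the values of such genes are uncertain to that extent.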

How the data were processed

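The authors deposited RPKM values for 15446 genes in 8 columns, with 1 decimal. Per the submitters' processing notes TopHat and Cufflinks were used. The sources used here give no versions, genome build, annotation, gene lengths, strandedness or numbers of reads, so depth is unknown and no interval is given. Per the labels' protocols, RNA was oligo-dT selected, fragmented and copied with random primers. Columns were assigned by sample title, and 0 columns came from outside the series. How the 3 embryo libraries were joined is not stated.

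Counts, medians and shares were computed in Python 3.11.15 with pandas 2.3.3 and numpy 2.4.6, on log2(RPKM + 1), and the counting rules were tested on simulated data. A gene's highest column was counted once where columns tied. Each named pair of genes has the largest ratio defining its group among genes of 10 RPKM or more on its higher side. Identifiers are paired with no names, so 0 of 6 marker lists could be matched. The rules and thresholds were chosen with earlier results of these data known. Alternatives were pseudocounts of 0.1 and 5, thresholds of 1 and 3, minimum levels, scalings of the columns and leaving out either carcass, and, chosen after seeing the data, leaving out genes higher in testis or in a gonad than in intestine.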

Additional observations from a re-analysis of the deposited data

Results flagged for a closer look

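Only 2 genes stood at least 4-fold away from intestine in opposite directions in the carcasses, a difference that was not tested because each carcass has 1 library. ASG13941 stood at 880.7 RPKM in intestine, against 9225.9 in male carcass and 86.4 in female carcass. Its log2 ratio of intestine was -3.39 over male carcass and 3.33 over female carcass, and muscle carried 52.5 RPKM, ovary 35 and testis 12.5. ASG14205 stood at 417.3 RPKM in intestine, against 8.7 in male carcass and 1681.4 in female carcass. Its log2 ratio of intestine was 5.43 over male carcass and -2.01 over female carcass, and muscle carried 38.4 RPKM and ovary 15.6. The value of -2.01 lies at the threshold and came to -1.46 with the columns scaled to an equal sum without the 10 highest genes.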

How the results depend on the processing

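The intestine-high count of 500 was 315 with a pseudocount of 5, 1324 at a log2 threshold of 1, 153 at a threshold of 3 and 815 with an equal sum without the 10 highest genes. It ran from 723 to 852 with a single carcass. The carcass-high count of 1603 was 3675 and 713 with pseudocounts of 0.1 and 5, 3431 and 934 at thresholds of 1 and 3, 997 at a minimum of 10 RPKM and 2490 against the mean of the carcasses. It ran from 2162 to 2561 with a single carcass. The male-only count of 99 was 59 with a pseudocount of 5, 396 and 41 at thresholds of 1 and 3, 44 at a minimum of 50 RPKM and 45 within 0.5 of intestine. The female-only count of 37 was 279 and 9 at thresholds of 1 and 3, 20 at a minimum of 50 RPKM and 11 within 0.5. These moves follow from stricter or looser rules, except under scaling, where the cause was not tested. All other alternatives for these 4 counts stayed within 1.5 times. Of 120 shares in the other columns recomputed under alternatives, 87 left the 95% binomial interval of the share as reported. Without the settings that change the 5 RPKM level itself, 67 of 100 did. That interval counts genes as independent and served only as a mark for a move. It does not measure spread between animals or libraries. Leaving out genes higher in a gonad than in intestine, chosen after seeing the data, gave 66 male-only and 31 female-only genes. No paired analysis was possible because each tissue has 1 library.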
